A study of Mus musculus with 4 samples.

Results

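Semaphorins, slits and netrins with their receptors, the guidance cue genes, were described in cultured mouse spermatogonial stem cells, the germ cells that sustain sperm production. The genes were found by name on the array (semaphorin classes 3 to 7, plexins, Nrp1 and Nrp2, Slit1 to Slit3, Robo1 to Robo4, netrins and Unc5 receptors), and each stood as its brightest probe by the mean of both channels. This gave 46 of 27827 gene names, on 87 probes. The cells came from C57/BL6 x DBA/2 F1 mice at day 5 and grew without serum in the presence of GDNF (40 ng/ml) and FGF2 (5 ng/ml). The treated cultures (-F+S) had FGF2 withdrawn and SU5402, an inhibitor of the FGF receptor kinase, added for 12 h, and the control cultures stayed in normal medium. Each of 4 two-colour arrays carried 1 treated sample in Cy3 (green) and 1 control sample in Cy5 (red). The design text calls these biological replicates and says nothing of separate animals, so the p-values measure the spread between these 4 arrays, which may be partly technical. Dyes were not swapped, so a dye effect of a probe and the treatment cannot be told apart. The sources used here do not say whether the cultures held feeder cells.

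Semaphorins are secreted or membrane-bound proteins that steer axons and migrating cells. Plexins are their receptors and act on the cytoskeleton through small GTPases, and the secreted class 3 semaphorins mostly need a neuropilin as a co-receptor. Slits signal through Robo receptors, and netrins through DCC, neogenin and Unc5 receptors. These families also act outside the nervous system, in blood vessel growth, epithelial shape and the adhesion of cells.

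Most of the guidance genes were higher after FGF2 withdrawal with SU5402. A gene was tested if 1 of the channels of its probe was well above background on 3 or more of the 4 arrays, and 44 of the 46 members passed. It was called higher or lower at an adjusted p under 0.05 (limma against a log2 ratio of 0, two-sided, Benjamini-Hochberg over all 18492 genes tested). Of the 44, 29 were called higher, where 37.5% of all genes were, and 10 were called lower, against 30.9% of all genes. A call with a change of at least 2-fold was made upwards for 20 members and downwards for 1, Plxnd1. Over all genes these shares were 11.6% and 1.65%. With the scanner's own log ratio, 3 members fell at least 2-fold: Plxnd1, Sema4a and Sema4f. That ratio put the median of all genes at -0.12, and 42.5% of all genes were then called lower. With median-centred processed signals, 1 member fell at least 2-fold. The median log2 ratio was 0.84 over the 44 members and 0.02 over all genes. The ratio had the same sign on all 4 arrays for 41 members (73.5% of all genes). The signals of the 4 treated samples lay wholly above those of the 4 controls for 28 members (34.1% of all genes) and wholly below for 9 (27.1%; 61.2% of all genes were apart either way). Only 20 members have a second kept probe. On the second brightest one, calls went upwards for 10 of these 20 and downwards for 3, and the median log2 ratio was 0.44. Among all 6588 genes with such a probe, 37.5% had upward and 26.9% downward calls, and the median was 0.06. The values 0.44 and 0.84 cover different sets of members, so their gap does not measure the choice of probe. Within the 20, the median absolute ratio, over rises and falls together, was 0.73 on the brightest probe and 0.69 on the second. Single members differed by more than these medians. The absolute ratio was smaller on the second probe for 14 of the 20, as for Nrp1 (1.99 and 1.10) and Plxnc1 (1.36 and 0.14). For the others it was larger there, as for Plxnb2 (0.44 and 0.71).

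The 2 members that were not tested were Robo2, a Slit receptor, and Ntn5, a netrin. None of the 4 probes of Robo2, nor the probe of Ntn5, was well above background on any array in either channel, so no ratio is given for them.

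**Figure D1:**
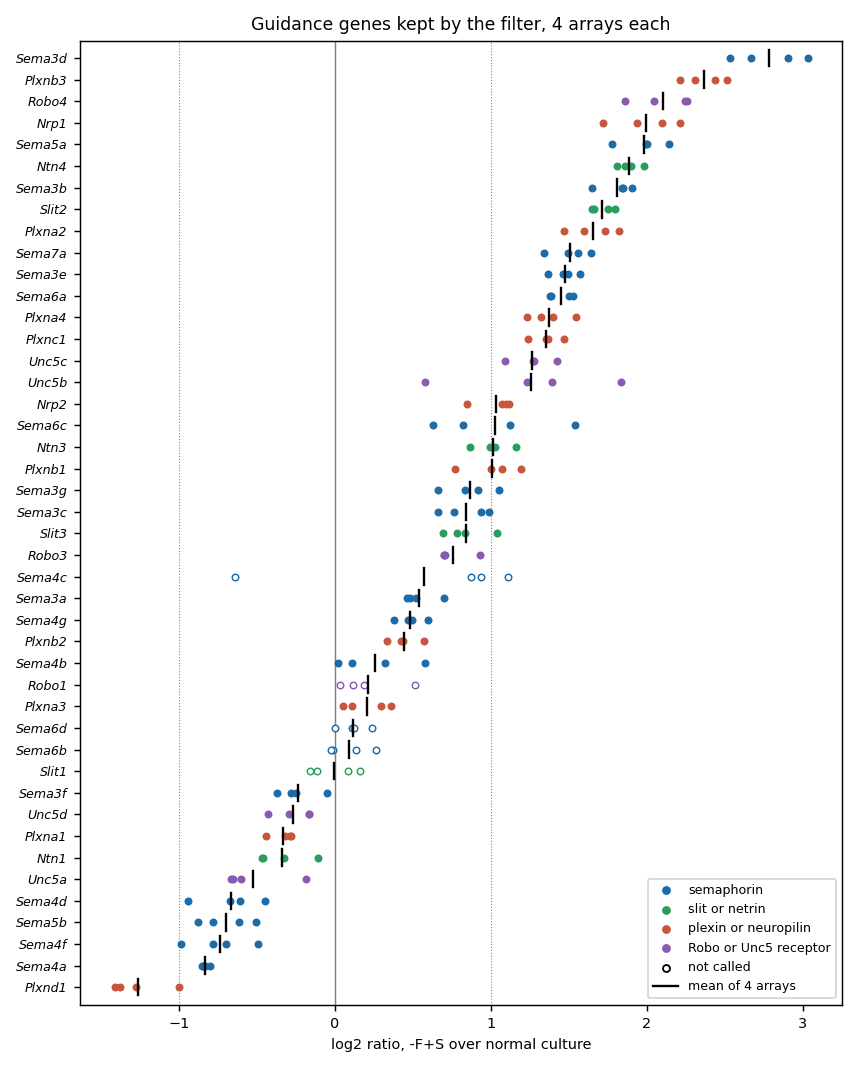
Log2 ratio of -F+S over normal culture for the 44 members tested, with 1 point per array, a bar at the mean, and open points where the gene was not called; dotted lines mark a 2-fold change. The means run from 2.78 for Sema3d to -1.27 for Plxnd1, and 20 members lie at or beyond 1.

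Marker genes of several cell types moved in the same RNA, where 37.5% of all genes were called higher and 30.9% lower. Of 16 tested markers of undifferentiated spermatogonia, such as Ddx4, Dazl, Gfra1 and Ret, all were well above background in both channels on all 4 arrays. Of these 16, 11 were lower and 1 was higher (median -0.30). Lin28a and Zbtb16 of that list were not analysed here. Of 15 tested Sertoli cell markers, 13 were higher (median 2.12), and their mean log2 signal was 11.26 to 11.43 in the control samples and 13.18 to 13.24 in the treated. The 16 fibroblast markers had 15 higher and none lower (median 1.46; mean log2 signal 14.74 to 14.85 against 16.32 to 16.39). The 11 Leydig and peritubular markers had 10 higher (median 1.67; 10.39 to 10.56 against 11.98 to 12.16). Of 12 macrophage markers 10 were lower (median -0.88; 11.01 to 11.08 against 9.96 to 10.06), and of 11 endothelial markers 7 were lower and 3 higher (median -0.29; 9.90 to 9.99 against 9.69 to 9.79). Of 10 neural and glial markers 6 were higher and 3 lower (median 0.44; 9.99 to 10.06 against 10.47 to 10.51). Sertoli, fibroblast and peritubular markers such as Sox9, Col1a1 and Acta2 were well above background in the control samples too, on all 4 arrays. In bulk RNA, more or fewer cells of a type and more or less RNA per cell cannot be told apart, and the part of these cells in each ratio below was not tested.

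The promoters of 4 members are shown. Sema3d had the largest rise and Plxnd1 the largest fall of the members tested. Robo4 had the largest rise of a Robo receptor and Slit2 that of a slit. Plxnb3, with the largest rise of any receptor (log2 2.37), is not among the 4. Each window runs from 250 bases before to 50 bases after the start of the gene, 5′ to 3′ on its own strand, from RefSeq (GRCm38.p6). Sema3d lies at chr5:12382916-12383215 (plus strand), Robo4 at chr9:37401722-37402021 (plus), Slit2 at chr5:47982905-47983204 (plus) and Plxnd1 at chr6:115994956-115995255 (minus). Capitals mark matches, on either strand, to the core of the TATA box, TATAAA, to the GC box, GGGCGG, to the core of ETS factor sites, CCGGAAGT, to the AP-1 site, TGANTCA, to the forkhead factor site, GTAAACA, to the TEAD factor site, GGAATG, or to the E-box bound by MYC and USF, CACGTG. No matches of different motifs overlap in these windows.
Sema3d: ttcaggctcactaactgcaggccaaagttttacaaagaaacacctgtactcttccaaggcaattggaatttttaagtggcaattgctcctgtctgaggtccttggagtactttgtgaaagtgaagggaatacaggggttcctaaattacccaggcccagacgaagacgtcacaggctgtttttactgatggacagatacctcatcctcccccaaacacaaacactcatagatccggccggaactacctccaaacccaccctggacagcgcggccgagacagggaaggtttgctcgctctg
Robo4: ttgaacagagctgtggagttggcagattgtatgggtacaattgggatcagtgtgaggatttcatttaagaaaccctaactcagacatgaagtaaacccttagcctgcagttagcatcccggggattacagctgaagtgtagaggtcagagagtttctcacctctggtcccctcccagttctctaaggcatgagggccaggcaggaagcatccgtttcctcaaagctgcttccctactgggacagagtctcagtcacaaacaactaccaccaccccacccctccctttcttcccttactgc
Slit2: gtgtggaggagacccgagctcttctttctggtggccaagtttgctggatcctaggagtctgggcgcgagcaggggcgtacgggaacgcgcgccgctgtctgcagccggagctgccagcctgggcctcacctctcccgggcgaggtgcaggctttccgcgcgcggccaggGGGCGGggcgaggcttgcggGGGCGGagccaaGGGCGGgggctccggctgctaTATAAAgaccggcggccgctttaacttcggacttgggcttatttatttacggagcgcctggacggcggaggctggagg
Plxnd1: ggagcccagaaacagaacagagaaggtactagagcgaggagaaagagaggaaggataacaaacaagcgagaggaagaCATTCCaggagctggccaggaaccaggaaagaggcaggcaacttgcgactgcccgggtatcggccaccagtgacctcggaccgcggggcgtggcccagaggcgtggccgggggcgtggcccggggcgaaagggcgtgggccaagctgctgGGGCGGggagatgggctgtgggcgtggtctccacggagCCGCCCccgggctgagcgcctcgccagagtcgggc

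None of the motifs was found in the windows of Sema3d and Robo4, where GC content was 49.7% and 50.3%. The Slit2 window, at 68% GC, held 1 TATA box core and 3 GC boxes, and the Plxnd1 window, at 67%, held 2 GC boxes and 1 TEAD site. Promoter entries were present for 38 of the 46 members, 51 entries in all, and their median GC content was 64% against 52.7% over 32851 entries. The GC box was in 66.7% of the members' windows and in 35.7% of all windows. The TATA box core was in 1.96% of the members' windows, that of Slit2 alone, against 13.6% of all. No member's window held the ETS core or the forkhead site, which 3.89% and 3.65% of all windows held. For the AP-1 site the shares were 5.88% and 7.81%, for the TEAD site 9.8% and 14.7%, and for the E-box 7.84% and 7.15%. A match describes these letters only and is not a measured binding site.

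Among the secreted class 3 semaphorins, 6 of 7 rose, and 3 of these rose at least 2-fold. Sema3d, a ligand of the neuropilin-plexin complex, had log2 ratios of 2.53, 2.67, 2.90 and 3.03 on arrays 1 to 4. It rose 6.88-fold (log2 2.78, SE 0.09, n = 4, limma adjusted p = 1.94e-08). Its log2 signal was 7.59 to 7.98 in the control samples and 10.47 to 10.70 in the treated, with a wide gap between the groups. Its probe lies at chr5:12586136-12586195 (mm9, as the files give all probe positions).

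Sema3b, which is known for inducing growth arrest in tumour cells, had ratios of 1.85, 1.91, 1.84 and 1.65 and rose 3.50-fold (SE 0.07, adjusted p = 5.07e-08). Sema3e, the class 3 member that binds plexin D1 without a neuropilin, had ratios of 1.37, 1.57, 1.50 and 1.46 and rose 2.78-fold (SE 0.07, adjusted p = 1.31e-07). For both genes the 4 treated samples lay close together and above all the controls. Sema3g and Sema3c rose less (log2 0.87 and 0.84), and Sema3a, the repulsive cue for which the class was first described, rose by 0.54. Sema3f, which acts mainly through neuropilin-2, went the other way, at -0.24 (adjusted p = 0.0185). The signals of its treated and control samples overlapped. Its call was lost without array 2, 3 or 4, and with median centring used instead of loess (-0.16), while its second brightest probe gave -0.60.

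Neighbouring genes of this class did not have like values. The probes of Sema3b and Sema3f lie 83.8 kb apart on chromosome 9 and gave 1.81 and -0.24. On chromosome 5, Sema3d, Sema3a, Sema3e and Sema3c lie in that order, at 2.78, 0.54, 1.47 and 0.84.

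Both neuropilins, the ligand-binding co-receptors of class 3 semaphorins and of VEGF, rose. Nrp1 had log2 ratios of 1.72, 2.10, 2.21 and 1.94 and rose 3.98-fold (SE 0.09, adjusted p = 9.82e-08). Nrp2 had ratios of 1.09, 1.07, 1.12 and 0.84 and rose 2.04-fold (SE 0.07, adjusted p = 2.09e-06). The 2 groups did not overlap for either gene, and array 4 gave the lowest Nrp2 ratio, below 3 close values.

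Nrp1 was read by 3 probes on chromosome 8 (mm9, plus strand), and the size of its rise depended on the probe. The first 30 of the 60 bases of each are shown, since the probes differ in place along the gene and in ratio.
Nrp1 probe at chr8:131026650-131026709: ttgtggatggtgtaaagttgaaaaaagata
Nrp1 probe at chr8:130992273-130992332: atggtgtctggacttatttcagactcccag
Nrp1 probe at chr8:130884009-130884068: gtaaaccgtctgtgatcagtctgaagtatg

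The first and the second start at bases 3054 and 1655 of the same RefSeq transcript, by the file, and the third was designed on another transcript record, which the RefSeq name table did not match. They are listed from the brightest to the dimmest. Their log2 ratios were 1.99, 1.10 and 0.62 (SE 0.09, 0.07 and 0.07), all called higher (adjusted p over all kept probes 6.51e-05 or below). The ranges over arrays did not overlap between the probes: 1.72 to 2.21, 0.97 to 1.18 and 0.49 to 0.71.

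Of the 9 plexins, 7 rose and 2 fell. The class A plexins are the signalling partners of neuropilins and also bind class 6 semaphorins. Plxna2 had ratios of 1.73, 1.60, 1.82 and 1.47 and rose 3.15-fold (SE 0.08, adjusted p = 1.40e-07), and Plxna4 had 1.40, 1.32, 1.55 and 1.23 and rose 2.59-fold (SE 0.08, adjusted p = 3.49e-07). All treated samples lay above all controls for both, and the second brightest probes gave smaller rises, of 0.67 for Plxna2 and 0.89 for Plxna4. Plxna1 fell slightly, by 0.33 on the log2 scale (adjusted p = 0.00184), on all 4 arrays. Its second brightest probe gave -0.01 (adjusted p = 0.944), and the scanner's own log ratio gave -0.51.

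Plxna3, a class A plexin on the X chromosome, was the member whose probes were called in opposite directions. The brighter probe had ratios of 0.36, 0.05, 0.30 and 0.11 (mean 0.20, SE 0.08, adjusted p = 0.0405 over genes), with overlapping signals in the 2 groups. The other probe had ratios of -0.33, -0.41, -0.52 and -0.19 (mean -0.36, adjusted p = 0.00276 over probes). The mean over both probes was -0.08 and was not called, so the gene is counted among the 7 rises only by the rule of the brightest probe. The call of the brighter probe was also lost without array 1 or array 3 and with the scanner's own log ratio (0.01). The first 30 bases of each are shown, the brighter probe first (mm9, plus strand).
Plxna3 probe at chrX:71589923-71589982: actcacgaagacttctgatgatttgaggaa
Plxna3 probe at chrX:71587057-71587288: atattcccaattacaagagctgggtggaga

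The span of the latter exceeds its 60 bases, so the file's coordinates include a gap, and the probes start at bases 6837 and 5518 of the transcript.

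Plxnd1 had the largest fall of the members tested. Plexin D1 is a receptor of Sema3e and is best known from the endothelium. It had ratios of -1.38, -0.997, -1.41 and -1.27 and was 2.40-fold lower (log2 -1.27, SE 0.08, adjusted p = 1.25e-06). Its log2 signal was 12.34 to 12.77 in the control samples and 11.19 to 11.35 in the treated, without overlap. Sema3e and Plxnd1, a ligand and its receptor, had ratios of opposite sign, 1.47 and -1.27. Among endothelial markers, Kdr was at -0.89, Pecam1 at -0.29 and Cdh5 at 1.20, and their part in the Plxnd1 value was not tested.

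**Figure D2:**
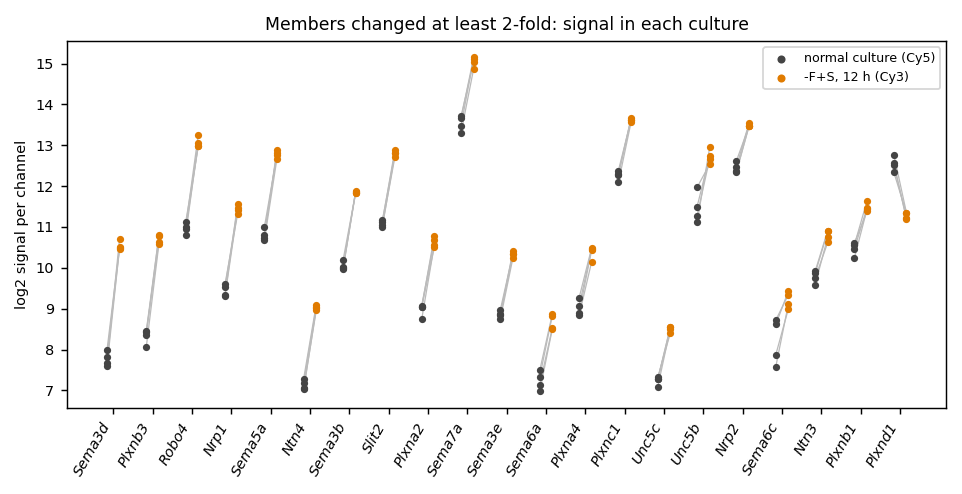
Log2 signal (y axis) in the 4 control (grey) and 4 treated (orange) samples for the 21 members changed at least 2-fold, with a line joining the samples of an array. The groups overlap for none of the 21, and only Plxnd1 goes down. The 21 were chosen by call and fold change on these same arrays, so the gap is no separate support. The height of different probes is not comparable.

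Of the 6 transmembrane class 4 semaphorins, 2 were called higher, 3 lower and 1 neither way. None of them changed 2-fold in this fit, and their median was -0.20; with the scanner's own log ratio Sema4a was at -1.08 and Sema4f at -1.04. Sema4a, a ligand known from immune cells that binds B and D plexins, fell by 0.83 (SE 0.06, adjusted p = 3.55e-06) with 4 nearly equal array values, from -0.85 to -0.80. Sema4f and Sema4d, the latter a ligand of plexin B1, fell by 0.74 and 0.67. For these 3 genes all treated samples lay below all controls. Of 12 tested macrophage markers 10 were lower, among them Csf1r at -0.59 and Cd68 at -0.91. Aif1 was called higher, at 0.32, and Fcgr1 was not called (-0.09). The part of these markers was not tested.

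Sema4g rose by 0.48 (adjusted p = 2.14e-04) and Sema4b by 0.26 (adjusted p = 0.0385), with overlapping signals for Sema4b. Sema4b was no longer called without array 2 (0.15) or array 4 (0.24), nor with median centring or the scanner's own log ratio. Sema4c had ratios of -0.64, 0.94, 0.87 and 1.11 and was not called (log2 0.57, adjusted p = 0.0637). Array 1 stood apart from the others, and without it the value was 0.97 (adjusted p = 2.68e-05).

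All 3 class B plexins, the receptors of class 4 semaphorins, rose. Plxnb3 had ratios of 2.31, 2.51, 2.21 and 2.44 and rose 5.16-fold (log2 2.37, SE 0.08, adjusted p = 1.64e-08), the largest rise among the receptors. Plxnb1 had 1.07, 1.00, 1.19 and 0.77 and rose 2.01-fold (adjusted p = 5.09e-06). Both had higher signals in every treated sample than in any control. Plxnb2 rose by 0.44 (adjusted p = 4.27e-04), and was not called with median centring in place of loess (0.28). Plxnb3 and Plxna3 are neighbours, 572 kb apart on the X chromosome, with ratios of 2.37 and 0.20.

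The class 5 semaphorins, which carry thrombospondin repeats, had ratios of opposite sign. Sema5a, for which plexin B3 is a known receptor, had ratios of 2.14, 2.00, 2.00 and 1.78 and rose 3.94-fold (SE 0.08, adjusted p = 4.73e-08). Its second brightest probe gave 1.07. Ligand and receptor of this pair both rose, at 1.98 for Sema5a and 2.37 for Plxnb3. Sema5b fell by 0.70 (SE 0.08, adjusted p = 5.11e-05) on its brightest probe, with all treated samples below the controls, but its second brightest probe gave 0.05 and was not called.

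Of the 4 transmembrane class 6 semaphorins, which bind class A plexins, 2 rose. Sema6a had ratios of 1.50, 1.39, 1.53 and 1.38 and rose 2.73-fold (SE 0.07, adjusted p = 1.36e-07). Only 2 of the 4 control signals were well above background, and the scanner's own log ratio gave 2.38. Sema6c had the more variable ratios of 1.13, 1.54, 0.82 and 0.63 and rose 2.04-fold (SE 0.13, adjusted p = 1.01e-04), while its second brightest probe gave 0.12 and was not called. Sema6d and Sema6b were at 0.12 and 0.09 and were not called; with the scanner's own log ratio both were slightly below 0.

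Sema7a, the GPI-anchored semaphorin, and its receptor Plxnc1 both rose. Sema7a had ratios of 1.49, 1.56, 1.64 and 1.34 and rose 2.84-fold (SE 0.07, adjusted p = 1.76e-07). Plxnc1 had 1.37, 1.24, 1.47 and 1.35 and rose 2.56-fold (SE 0.07, adjusted p = 2.43e-07). Neither gene had overlapping groups. The second brightest probe of Plxnc1 gave 0.14 (adjusted p = 0.254) in place of 1.36.

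Among the slits, secreted ligands of Robo receptors, 2 of 3 rose. Slit2 had ratios of 1.75, 1.80, 1.66 and 1.65 and rose 3.28-fold (log2 1.72, SE 0.07, adjusted p = 4.74e-08), with log2 signals of 11.01 to 11.16 in the controls and 12.72 to 12.89 in the treated samples. Slit3 rose by 0.84 (adjusted p = 1.12e-05). Slit1 was at -0.01 and was not called (adjusted p = 0.927), with 2 arrays above 0 and 2 below.

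Robo4, the Robo receptor best known from endothelial cells, had ratios of 2.25, 2.26, 2.05 and 1.86 and rose 4.29-fold (log2 2.10, SE 0.08, adjusted p = 5.37e-08). Its log2 signal was 10.81 to 11.11 in the controls and 12.97 to 13.25 in the treated samples. Endothelial marker genes moved both ways beside it, with Sox18 at -2.04, Kdr at -0.89, Vwf at -0.34, Emcn at 0.58 and Cdh5 at 1.20, and their part was not tested. Robo3, whose probe lies 2.16 kb from that of Robo4 on chromosome 9, rose by 0.76 (SE 0.07, adjusted p = 1.43e-05). Its array values of 0.70, 0.70, 0.93 and 0.70 had array 3 alone at the top. Robo1, the widely expressed Slit receptor, was at 0.21 and was not called (adjusted p = 0.0596), but was called without array 3 (0.27, adjusted p = 0.0431).

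Netrins are secreted cues related to laminins. Ntn4, a netrin of basement membranes, had ratios of 1.81, 1.90, 1.98 and 1.86 and rose 3.70-fold (log2 1.89, SE 0.07, adjusted p = 3.00e-08). Only 1 of its 4 control signals was well above background, so the size of the fold was not settled: an offset of 16 in place of 50 gave a log2 ratio of 2.19, and the scanner's own log ratio, with no offset added, gave 3.12. No setting run gave less than 1.86. Ntn3 had ratios of 0.87, 1.16, 1.03 and 0.99 and rose 2.02-fold (SE 0.07, adjusted p = 2.22e-06). Ntn1, the founding member for axon attraction, fell by 0.34 (adjusted p = 0.00431), with all treated samples below all controls, and was at -0.64 with the scanner's own log ratio. With median centring it was at -0.29 and not called.

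The Unc5 receptors, which mediate repulsion by netrins and can trigger cell death without ligand, were split, with 2 higher and 2 lower. Unc5c had ratios of 1.27, 1.42, 1.28 and 1.09 and rose 2.40-fold (SE 0.08, adjusted p = 5.90e-07), with a control signal well above background on 2 of the 4 arrays and a value of 2.13 from the scanner's own log ratio. Unc5b had ratios of 1.23, 1.39, 1.84 and 0.57 and rose 2.39-fold (SE 0.16, adjusted p = 1.14e-04). Its arrays spread widely, but every treated sample was above every control. Unc5a fell by 0.53 (adjusted p = 7.63e-04), with array 1 at -0.18 and the others from -0.67 to -0.60. Unc5d was at -0.27 (adjusted p = 0.0103), and at -0.54 with the scanner's own log ratio. It was not called with median centring (-0.25).

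By role, 16 of 26 tested ligands rose and 6 fell, with a median of 0.70, and 13 of 18 tested receptors rose and 4 fell, with a median of 1.02. Over all genes, 37.5% were called higher and 30.9% lower, and 61.2% had groups that did not overlap. The 7 members whose groups overlapped were Sema4c, Sema4b, Robo1, Plxna3, Sema6b, Slit1 and Sema3f.

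Where a gene had more than 1 kept probe, the probes mostly gave the same direction. Of 20 such members, the brightest and second brightest probes were both called in the same direction for 12. They were called in opposite directions for Plxna3 only. For Plxna1, Plxnc1, Sema5b and Sema6c only the brightest of this pair was called, and for Robo1, Sema4c and Sema6d neither was. The second brightest probe had the smaller absolute ratio in 14 of the 20, with medians, over rises and falls together, of 0.73 and 0.69. No probes of different members shared a run of more than 11 bases, in 3677 pairs compared.

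**Figure D3:**
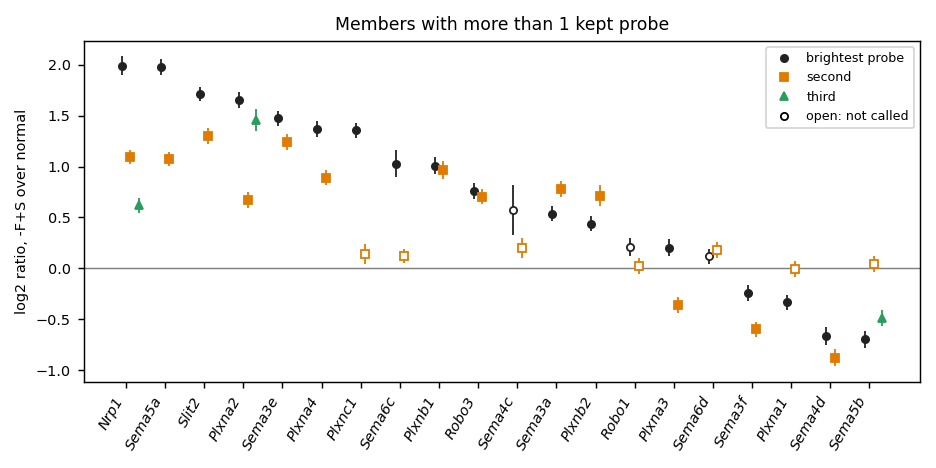
Log2 ratio with its standard error for each kept probe of the 20 members with more than 1; open symbols were not called. The Plxna3 probes lie on opposite sides of 0, at 0.20 and -0.36, and the Nrp1 probes run from 1.99 to 0.62.

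Other genes of these pathways moved both ways. Of 92 tested partner genes in 4 lists, 47 were higher and 18 lower (median 0.28), and 22 rose and 1 fell at least 2-fold. Over all genes, 37.5% were higher and 30.9% lower, and 11.6% rose and 1.65% fell at least 2-fold. Among the netrin, DCC and RGM partners, 5 of 13 were higher and 2 lower, a share of higher genes near that of all genes. All 5 rose at least 2-fold, where 11.6% of all genes did. Flrt2, a ligand of Unc5 receptors, rose 4.82-fold, Dab2, an endocytic adaptor, 3.57-fold, and Rgma, a ligand of neogenin, 3.16-fold. The second brightest probes of Flrt2 and Dab2 gave smaller log2 ratios, of 1.12 in place of 2.27 and of 0.83 in place of 1.84. Dscaml1 and Mcam were lower, at -0.37 and -0.36. Dscaml1 was not called with median centring (-0.32) and was at -0.64 with the scanner's own log ratio, and the second brightest probe of Mcam gave -0.72. Neogenin (Neo1) was at 0.20 and was not called, though its second brightest probe was, at 0.51. Dcc, the classical netrin receptor, was not tested because no probe of it passed the filter.

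Of 17 tested semaphorin and plexin co-receptors and partners, 7 were higher and 4 lower, again with a share of higher genes near that of all genes. A rise of at least 2-fold was called for 4 of the 17, against 11.6% of all genes. The adhesion proteins Chl1, Ncam1 and Nrcam, which associate with neuropilins or semaphorin signalling, rose 13.5-fold, 3.59-fold and 2.28-fold. The mean of all kept probes of Ncam1 gave a log2 ratio of 1.02 in place of 1.85. Met, the HGF receptor that couples to B plexins, rose by 0.69, but its second brightest probe was at -0.02. The lower genes included the VEGF receptor Kdr (-0.89), Tyrobp (-0.84), an adaptor of myeloid cells, and Cd72 (-0.67; -1.12 with the scanner's own log ratio), a receptor of Sema4d. Flt1 was at -0.27 on its brightest probe and at 0.41, called higher, on its second brightest. Its call was lost without array 2 or array 4.

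Among 20 tested Slit and Robo partners, 11 were higher and 2 lower. The heparan sulphate proteoglycans Gpc1 and Sdc3 rose 2.21-fold and 2.14-fold, with Sdc3 at 0.08 and not called on its second brightest probe. Sos2, an exchange factor of Ras and Rac, rose by 0.78. Pak1, a kinase downstream of Rac, was at -0.57, and Sos1 at -0.29, with its second brightest probe called higher at 0.77.

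Of the 42 intracellular transducers, 24 were higher and 10 lower. Rnd3, an atypical small GTPase that acts on the cytoskeleton, rose 5.24-fold. Among the collapsin response mediator proteins, which carry semaphorin signals to microtubules, Dpysl3 and Dpysl4 rose 3.53-fold and 3.47-fold. Dpysl2 also rose, by 1.97 on the log2 scale, while Crmp1 was 2.14-fold lower and Dpysl5 was at -0.48. The second brightest probe of Dpysl5 gave -0.03 and was not called. Arhgef11, an exchange factor bound by B plexins, was at -0.39, while Arhgef12 of the same list was called higher, at 1.39.

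Of 13 tested feedback genes of the FGF pathway, 6 were higher and 4 lower (median 0.20), where 37.5% and 30.9% of all genes were. Fosl1 and Il17rd were lower, at -0.66 and -0.54, and Dusp4 and Etv1 higher, at 0.60 and 0.48. Spry2, Spry1 and Egr1 were also higher, at 0.46, 0.27 and 0.20, and Etv4 lower, at -0.38. Spry4 (0.63), Etv5 (0.06) and Dusp6 (-0.01) were not called. On the second brightest probe Dusp4 was at 0.03 and not called. Spred1 and Spred2 were at 0.44 and -0.37 and had the opposite sign on their second brightest probes, -0.39 and 0.20.

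**Figure D4:**
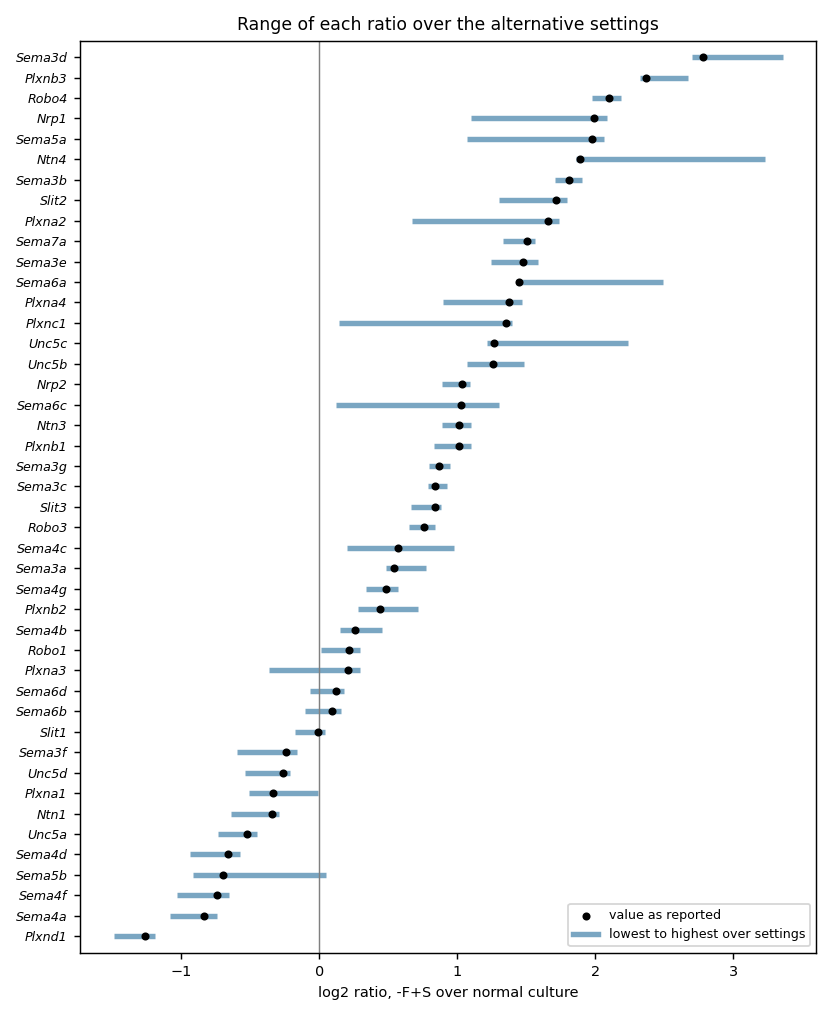
Reported log2 ratio (black) of the 44 members and its range over the alternative settings (blue). The widest ranges upward are those of Ntn4, Sema6a and Unc5c, whose control signal was above background on 1 or 2 of 4 arrays. No call was lost, gained or reversed for 32 of 44, but another probe could be tried for only 20 members.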

How the data were processed

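The members and gene lists were chosen with earlier results of these data known. The authors deposited the linear intensity of each spot, read with Agilent Feature Extraction 10.5.1.1 (file headers and submitters' processing notes). The deposited LogRatio is log10 of red over green, per the file headers, and its sign was turned here. The deposited series matrix holds log2 values, which equalled log2 of the processed green over red signal, uncentred, for 100% of 41174 probes within 0.001, with column medians of -0.26, 0.012, 0.11 and -0.058. No scale, centring or direction of it is given in the sources used here.

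Background was corrected by normexp (offset 50), and green over red ratios were normalized within arrays by loess, with the 1639 control spots of 45018 given weight 0. Outlier marks of the scanner software removed 141 to 171 spots per array, and none was saturated. Well above background were 26583 to 28465 probes in the treated channel and 25504 to 27868 in the control channel. A gene, by its name in the files, stood as its brightest of 27727 kept probes. RefSeq (GRCm38.p6) accessions matched 67 of the 87 member probes, all with the same symbol. Ratios were tested with lmFit and eBayes of limma 3.58.1 (R 4.3.3, package data.table, version 1.17.8), checked on simulated data. Levels per channel are after loess and Aquantile scaling. All 4 arrays share 1 slide and 1 scan, per the file headers. The number of arrays limits the precision: the median SD of a log2 ratio between arrays was 0.15, and arrays correlated across genes at 0.906 to 0.947. Values on every array are given for members called with the same sign on all 4 arrays and changed at least 2-fold, and for those with probes called in opposite directions. From each pathway list up to 3 called genes per direction by adjusted p are named, with Neo1, Dcc, Met, Kdr and Flt1. Marker genes, and members outside this rule whose array values are given, were chosen after their values were seen. Dpysl2, Arhgef12 and the remaining FGF feedback genes were added in the same way. Alternatives covered the normalization, background offset, filter, probe choice, deposited ratios and each array left out.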

Additional observations from a re-analysis of the deposited data

Results flagged for a closer look

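Among the 4 arrays of each of 44 members, 1 array lay far from the 3 others for 4 members, by Dixon's test at the 95% level. Chance alone gives such a flag in about 5% of groups. For Sema4c, a class 4 semaphorin, array 1 gave a log2 ratio of -0.64, against 0.87 to 1.11 on the others. For Nrp2, array 4 gave 0.84 against 1.07 to 1.12. For Robo3, array 3 gave 0.93 against 0.70 on each of the others. For Unc5a, a netrin receptor, array 1 gave -0.18 against -0.67 to -0.60.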

How the results depend on the processing

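Of the 44 members, 32 had no call lost, gained or reversed in any alternative run, and 29 of these also kept their sign (Sema6b, Sema6d and Slit1, never called, did not). Another probe could be tried for only 20 of the 44, so for the rest the count of 32 says nothing of probe choice. A call was lost in some alternative for 10 and gained for 2 (Sema4c and Robo1). The sign of a called value changed for Plxna3, whose other probe was called lower, and for Sema5b, whose second probe was not called. With the second brightest kept probe, members higher were 10, members lower 3, members higher at least 2-fold 4 and the median 0.44. These values cover only the 20 members that have such a probe, so they do not compare directly with those of all 44. Pathway lists lower were 7, of 57 genes tested. The scanner's log ratio and the series matrix values both moved the median of all genes by -0.15, to -0.12, and gave a member median of 0.73, members lower at least 2-fold of 3 in place of 1, and pathway lists lower of 29. Of all called genes, 41.7% were then higher in place of 54.9%, and of the called pathway genes 59.2% in place of 72.3%. With median centring in place of loess, pathway lists lower were 9, and 82% of the called pathway genes were higher. Leaving out 1 array at a time gave 28 to 29 members higher, 9 to 10 lower, 18 to 20 higher at least 2-fold, medians of 0.80 to 0.89, and 46 to 50 pathway genes higher and 16 to 17 lower. Called values changed sign with the second brightest probe for Plxna3 (-0.36), Sema5b (0.047), Sos1 (0.77), Spred1 (-0.39), Spred2 (0.20), Met (-0.019) and Flt1 (0.41). With the mean of all kept probes they did so for Plxna3 (-0.080), Sos1 (0.24), Spred1 (-0.084) and Flt1 (0.17). The cause was not tested. The test of within-array ratios already pairs the treated and control sample of each array, so no further replicate block was fitted. Signal over background limits the ratios of Ntn4, Sema6a, Unc5c and Unc5d.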
